A study of Mus musculus with 244 samples.

Results

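The genes described here encode the proteins of the cytoplasmic ribosome. They were taken by symbol: every row of the count table named Rpl or Rps followed by a number (with at most 1 letter from a, l, x and y and 1 further digit), Rplp0 to Rplp2, and Rpsa. That gave 83 genes among 25122 named rows: 31 of the small subunit, 43 of the large subunit, the 3 acidic stalk proteins and 6 paralogs, whose symbol carries an l after the number. Oocytes were compared with somatic cells of the same plate number on plates 1, 2, 4, 5 and 6, over the members that each plate listed.

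The data are single-cell transcriptomes made with Smart-seq2, a full-length protocol without molecular identifiers, from hand-collected cells of CD-1 mouse ovaries at postnatal day 6. Primordial follicles, in which flat pre-granulosa cells surround a non-growing oocyte, were compared in the study with transitioning, primary and secondary follicles, each isolated by enzyme and staged under the microscope before the oocyte was separated from its somatic cells. All cells were from untreated CD-1 mice with no transgene or mutation named. The oocyte groups (primordial, transitioning, primary and secondary) held 59 cells on the 5 plates (13, 8, 15, 10 and 13), and the somatic groups of the same 4 stages 37, 32, 16, 66 and 12 cells. Plate 3, with 22 transitioning somatic cells and no oocyte, was outside the comparison. For 2 somatic cells of plate 1 the cell table gives a later stage than the sample label, which was used; without both, the median log2 ratio of that plate was -1.88 in place of -1.86. No label names the animal of a cell, so the cells of a group count as 1 sample, no difference below has a replicate test, and intervals cover counting error only.

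Each ribosomal subunit is built from ribosomal RNA and 1 copy of nearly every protein. The messengers of these proteins begin with an oligopyrimidine tract, and cells adjust their translation together with growth. Oocytes store messengers and ribosomes for the time after fertilisation, and mouse germ cells also use a few paralogs, among them Rpl10l and Rpl39l, known from spermatogenesis.

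Those paralogs carried the main exceptions, so their coding sequences are shown beside the gene each is named after. The sequences are from the GENCODE vM21 transcripts (GRCm38), written 5′ to 3′, and capitals mark the bases at which paralog and namesake differ. Rpl39l (chr16:10170226-10174911, plus strand, 3 exons) and Rpl39 (chrX:37082520-37085402, minus strand, 3 exons) have coding sequences of 52 codons with 23 differing bases (85.3% of bases equal).
Rpl39l: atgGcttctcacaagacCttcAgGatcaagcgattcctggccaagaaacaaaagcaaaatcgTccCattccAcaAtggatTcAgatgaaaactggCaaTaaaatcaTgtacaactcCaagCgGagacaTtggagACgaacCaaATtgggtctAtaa
Rpl39: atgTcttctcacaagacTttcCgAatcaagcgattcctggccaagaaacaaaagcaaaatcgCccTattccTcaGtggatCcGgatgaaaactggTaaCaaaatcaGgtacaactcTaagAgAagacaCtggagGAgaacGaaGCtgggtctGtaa
Rpl10l (chr12:66283379-66284401, minus strand, a single exon) and Rpl10 (chrX:74270812-74273135, plus strand, 6 exons) have coding sequences of 645 bases, of which 547 are equal (84.8%), and 89 of the 98 differences fall on the third base of a codon. The first 300 bases hold 49 of them.
Rpl10l: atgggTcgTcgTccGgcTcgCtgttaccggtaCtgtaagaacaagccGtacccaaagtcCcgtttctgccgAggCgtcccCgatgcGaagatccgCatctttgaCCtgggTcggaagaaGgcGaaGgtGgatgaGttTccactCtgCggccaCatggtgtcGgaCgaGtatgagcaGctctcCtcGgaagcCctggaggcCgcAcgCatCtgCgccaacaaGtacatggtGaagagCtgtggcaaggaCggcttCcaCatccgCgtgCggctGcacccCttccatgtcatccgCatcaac
Rpl10: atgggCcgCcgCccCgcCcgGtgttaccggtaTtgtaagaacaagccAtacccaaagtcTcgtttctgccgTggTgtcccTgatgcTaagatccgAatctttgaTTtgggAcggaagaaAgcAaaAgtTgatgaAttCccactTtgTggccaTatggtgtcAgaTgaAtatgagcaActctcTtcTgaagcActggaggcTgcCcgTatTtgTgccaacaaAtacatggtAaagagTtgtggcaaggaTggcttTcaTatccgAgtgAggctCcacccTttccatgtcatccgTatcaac
The longest run of equal bases was 38 in the first pair and 23 in the second. A read that lies wholly in such a run matches both genes. The paper names paired-end libraries and a sequencing kit by its number of cycles, but states neither the length of each read nor the table's read counter.

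The members were not listed evenly. Plates 1, 2, 4, 5 and 6 gave values for 33, 18, 21, 32 and 24 members (21.7% to 39.8% of them), whereas they listed 62.4% to 73.8% of all rows. Of the 83 members, 77 were listed on at least 1 of these plates and 76 had 10 counts or more there over both cell types, the minimum used below: 60 on 1 plate, 5 on 2 or 3 plates, 5 on 4 plates and 6 on all 5. Rpl3l was listed on all 5 plates but never reached 10 counts. Rps16, Rps24, Rps25, Rps27a, Rpl28 and Rpl22l1 were listed on plate 3 alone and have no comparison. The values of 2 plates therefore rest mostly on different members.

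Depth and identity were looked at first. The oocyte and granulosa marker lists follow those the authors used to remove cells scoring high for the other type. Low shares of the other type's markers were therefore partly fixed in advance and are no independent check. Counts per cell ran between 5440 and 801258 in oocytes, against 5150 to 409310 in somatic cells. Oocyte markers (such as Bmp15; 6 to 10 listed of 19) took 0.463% to 6.16% of the summed counts of oocytes, against 0.00169% to 0.244% in somatic cells. Granulosa markers (such as Amh and Fshr; 12 to 19 listed of 21) took 0.00652% to 0.0232% in oocytes, against 1.13% to 3.71% in somatic cells. The 6 stromal markers reached at most 0.00134% in oocytes, against 0.752% in the somatic cells of plate 2, where 1 cell had 6.04%. The 5 blood markers took at most 0.000772% of the summed counts of oocytes (plate 2), against 0.0014% in somatic cells (plate 5). In a single somatic cell they reached 0.0667%, on plate 1. Of them, Hbb-bs, Hbb-bt and Hba-a1 were at 0 in the oocytes of every plate and in the somatic cells of plates 1, 2, 4 and 6. Endothelial markers took at most 0.0091% in oocytes and 0.0105% in somatic cells, both on plate 5, where a single somatic cell reached 0.178%.

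Ribosomal protein messengers took a smaller share of the counts in oocytes than in somatic cells on all 5 plates, with the smallest gap on plate 4. Summed over cells, the listed members held 2.11% of counts in oocytes, against 6.46% in somatic cells, on plate 1. On plate 2 they held 1.43% in oocytes, against 3.79% in somatic cells. The values on plate 4 were 1.90% in oocytes and 2.44% in somatic cells, and the log2 ratio of these shares, -0.36, was 0.015 with every cell weighted equally and -0.0019 with every cell thinned to 5000 counts, so that its direction was lost. On plate 5 the share was 0.970% in oocytes and 3.24% in somatic cells, and on plate 6 it was 0.491% in oocytes and 3.52% in somatic cells. The share in somatic cells was thus 3.06, 2.65, 1.28, 3.34 and 7.17 times that in oocytes on plates 1, 2, 4, 5 and 6, and exact 95% binomial intervals of these shares were narrow (0.477% to 0.506% for the oocytes of plate 6, against 3.47% to 3.58% for its somatic cells). In such shares, fewer messengers of these genes per cell and more messengers of other genes cannot be told apart.

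Single cells spread widely within each group. On plate 6 the 13 oocytes had between 0.193% and 1.25% (median 0.419%), against 2.54% to 4.66% (median 3.37%) in the 12 somatic cells, without overlap. On plate 5 the 10 oocytes had between 0.187% and 3.24% (median 0.433%), against 0.103% to 12.2% (median 2.91%) in 66 somatic cells. There 9 of the 10 oocytes lay below the somatic median, the exception being the only primordial oocyte, while 2 primordial somatic cells (0.103% and 0.111%) lay below every oocyte. On plate 1 all 13 oocytes (0.575% to 3.35%, median 2.94%) lay below the somatic median of 4.80%. On plate 2 the 8 oocytes spread between 0.301% and 3.99% (median 1.19%) and 6 of them lay below the somatic median of 2.88%. On plate 4 the 15 oocytes spread most in absolute terms, between 0.478% and 7.65% (median 1.44%), against 1.71% to 3.34% (median 2.24%) in 16 somatic cells. Oocytes of plate 4 therefore fell on both sides of all its somatic cells.

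**Figure D1:**
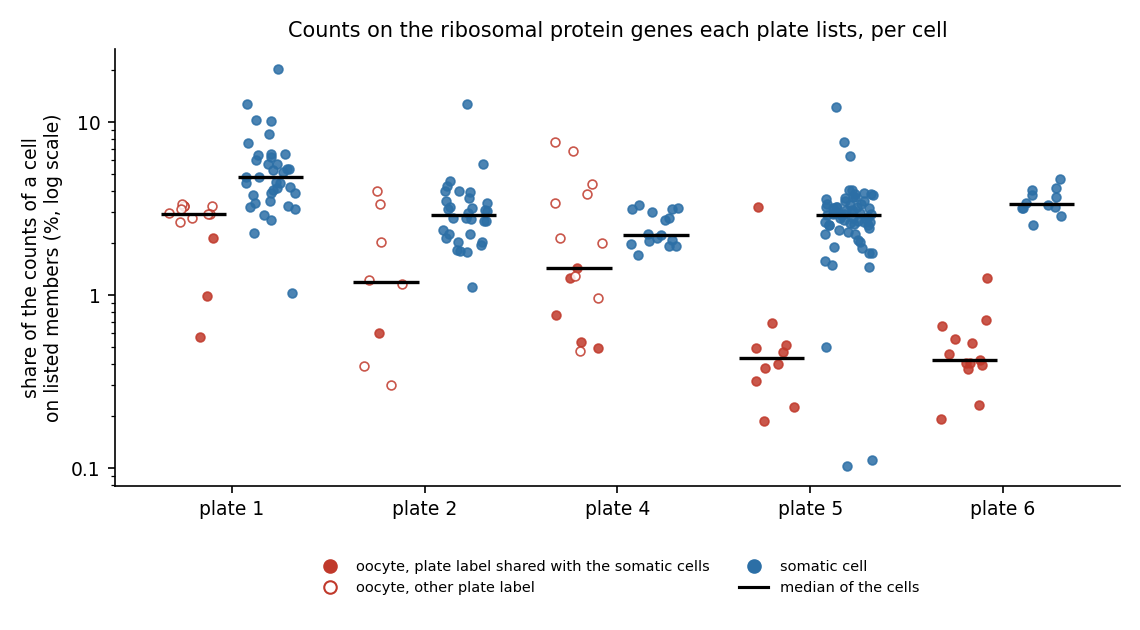
Share of the counts of each cell on the members its plate lists (percent, log scale), for oocytes (red, left) and somatic cells (blue, right) of 5 plates, where filled red points are oocytes with the same plate label as the somatic cells, open ones have another label, and bars are medians over cells. The groups do not overlap on plate 6, and on plate 4 the oocytes reach from 0.478% to 7.65%, past both ends of the somatic cells.

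The cell table also gives a date-like plate label, and on plates 1, 2 and 4 most oocytes carry another label than the somatic cells they are numbered with. On plate 4, where every cell is from a transitioning follicle, the 5 oocytes that share the somatic label had 0.893% of their summed counts on the members, and the 10 oocytes with other labels 3.09%, against 2.44% in the somatic cells. Single oocytes had 0.496% to 1.44% under the shared label and 0.478% to 7.65% under the others. Their depth also differed, with totals of 103264 to 629560 counts under the shared label and 7665 to 323249 under the others. On plate 1 the 3 oocytes with the somatic label had 0.872% and the 10 others 3.10%, against 6.46% in somatic cells. On plate 2 the 1 oocyte with the somatic label, from a primary follicle like its somatic cells, had 0.601% and the 7 others, all primordial, 1.56%, against 3.79%. Oocytes with the somatic label thus had a lower summed share than the rest on all 3 plates, and whether the label or the cells make the difference was not tested. On plates 5 and 6 all cells share 1 label each.

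Gene by gene, the median member was lower in oocytes on every plate, but it stood below the median of all genes only on plates 1, 5 and 6. The values are log2 ratios of oocytes over somatic cells in CPM, summed counts per 1000000 counts of the group, and a member is called where it differs by at least 2-fold. On plate 1 the median was -1.86 over 32 members, and 28 were lower in oocytes by at least 2-fold and 1 higher, where 45% of 8716 genes tested were lower and 26.9% higher. On plate 5 the median was -1.62 over 31 members, with 28 lower and 1 higher, where 45.5% of genes were lower and 17.9% higher. The primordial oocyte of plate 5 held 19.1% of the summed oocyte counts there and had 3.24% of its own counts on the members. On plate 6 the median was -2.31 over 23 members, with 20 lower and 1 higher, where 49.7% of genes were lower and 25.7% higher. These are shares of 87.5%, 90.3% and 87% of the members, above the background of each plate.

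Plates 2 and 4 differed from these. On plate 2 the median was -0.79 over 17 members, with 8 lower and 2 higher, where 59.2% of genes were lower and 24.9% higher. On plate 4 it was -0.19 over 20 members, with 2 lower and 1 higher, where 52.5% of genes were lower and 29% higher. The members lower in oocytes (47.1% and 10.0%) were thus a smaller share than among all genes. The median of all genes itself lay at -0.66, -2.0, -1.24, -0.76 and -0.97 on plates 1, 2, 4, 5 and 6, so that relative to it the members were at -1.20, 1.21, 1.05, -0.86 and -1.34. Scaling by TMM or DESeq2 factors, which centres on most genes, turned the members' median on plates 2 and 4 to above 0 (0.45 and 0.63 by TMM) and left it below -1 on plates 1, 5 and 6. Among genes with a mean of at least 50 CPM, nearer to the level of the members, 30.5%, 53.9%, 47.4%, 37.1% and 44.3% were lower on plates 1, 2, 4, 5 and 6, against 28 of 31, 8 of 17, 2 of 20, 25 of 28 and 19 of 21 members.

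With the oocytes that share the somatic label alone, the median was lower on plates 1, 2 and 4. It was then -2.99 on plate 1 (31 of 32 members lower by at least 2-fold), -2.54 on plate 2 (15 of 17, from 1 oocyte) and -1.20 on plate 4 (15 of 20). Of all genes, 50.6%, 53% and 59.7% were lower in the same cells, with medians of -1.04, -1.18 and -1.70, so that the members of plate 4 still lay above the median of all genes. The oocytes with other labels had medians of -1.34, -0.64 and 0.38 on these plates. In them 23, 7 and 0 members were lower by at least 2-fold, where 41.8%, 59.9% and 51.2% of all genes were, and 1, 2 and 8 members were higher, where 26.6%, 24.5% and 27.9% of all genes were.

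**Figure D2:**
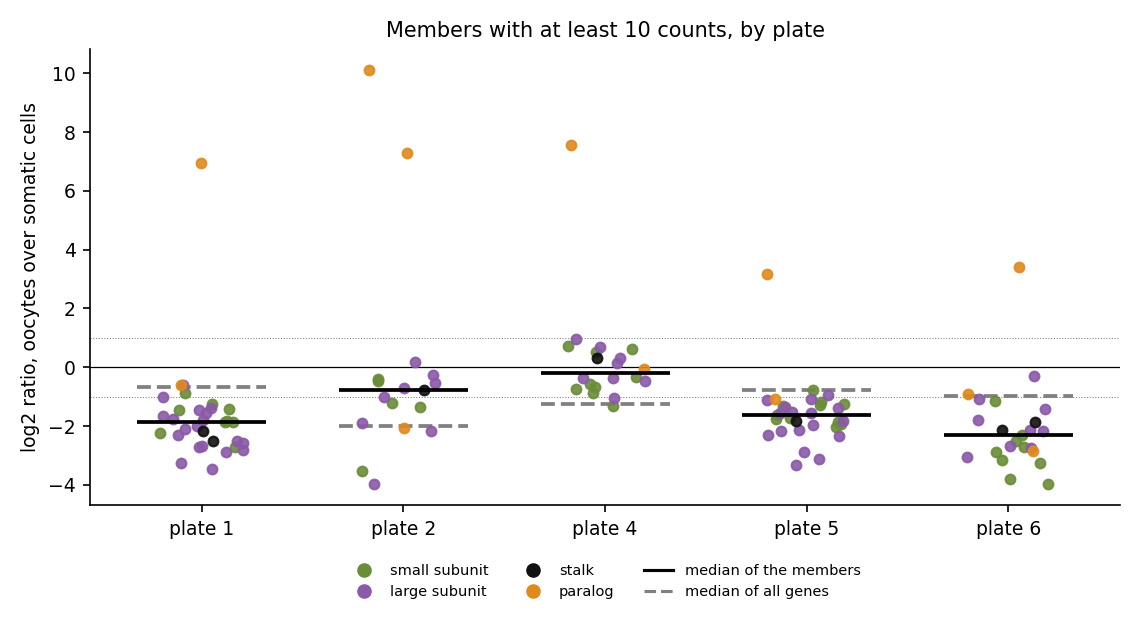
Log2 ratio of oocytes over somatic cells for each member with at least 10 counts on plates 1, 2, 4, 5 and 6, coloured by subunit, with the median of the members (solid) and of all genes tested (dashed); dotted lines mark a 2-fold difference. The members' median lies below that of all genes on plates 1, 5 and 6 and above it on plates 2 and 4, and the orange points far above 0 are Rpl10l on every plate and Rpl39l on plate 2.

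Members of the same stage were also compared, since oocytes and somatic cells of a plate differ in stage. On plate 1 the median log2 ratio was -1.31 between 5 primordial oocytes and 19 primordial somatic cells, and -2.28 between 7 primary oocytes and 5 primary somatic cells. The primary value rested on 1 oocyte with 67.8% of the counts of the 7, without which it was -1.15 and the primary oocytes had 2.89% of their summed counts on the members. On plate 5 it was -2.82 for the primary stage (4 oocytes, 19 somatic cells) and -3.18 for the secondary stage (5 oocytes, 26 somatic cells), with 30 of 31 members lower by at least 2-fold in each, where 51.9% and 49.1% of all genes were lower. On plate 6 the secondary stage (2 oocytes, 11 somatic cells) gave -3.42, with 20 of 22 members lower, where 52.6% of all genes were. The later stage thus had the lower median on plate 5, and on plate 1 only with that oocyte.

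Within oocytes, the share of the members was lower at later stages on plates 5 and 6. The median share was 0.490% in 4 primary and 0.320% in 5 secondary oocytes of plate 5, where the lone primordial oocyte had 3.24%. In its somatic cells it was 2.56%, 3.35% and 2.96% at the primordial, primary and secondary stage. On plate 6 it was 0.662% for the transitioning stage (3 oocytes), 0.437% for the primary (8) and 0.212% for the secondary (2), and both secondary oocytes lay below all others. On plate 1 the median was 3.13% in 5 primordial and 2.94% in 7 primary oocytes, ranges that overlapped. Primary and secondary oocytes of plate 5 overlapped as well. So did the transitioning (0.392% to 1.25%) and primary oocytes (0.374% to 0.716%) of plate 6.

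**Figure D3:**
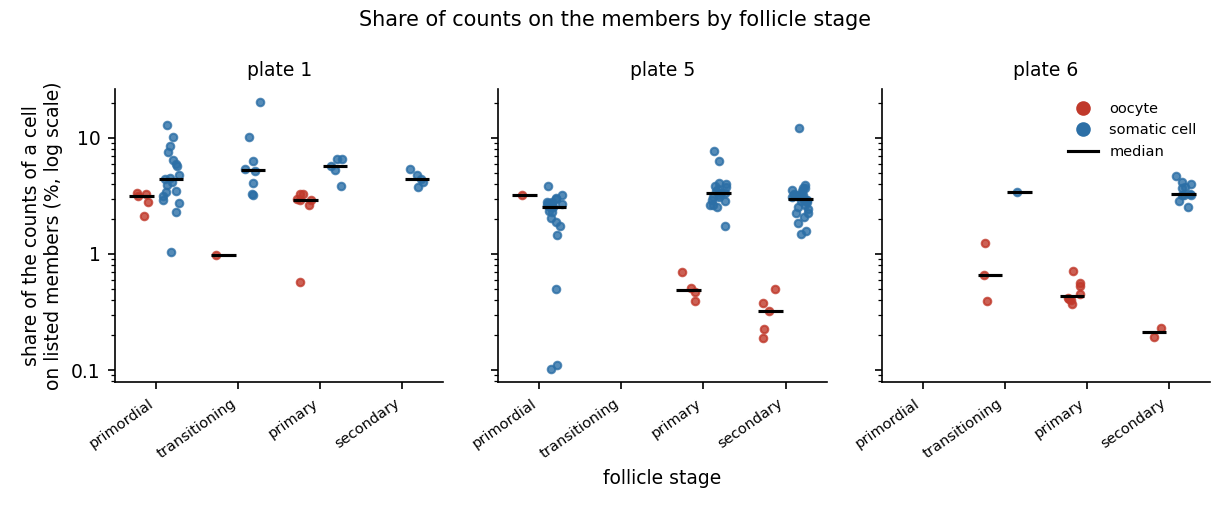
Share of the counts of each cell on the listed members (percent, log scale) by follicle stage on plates 1, 5 and 6, with oocytes in red on the left and somatic cells in blue on the right of each stage, and bars for medians. On plate 6 the medians of oocytes are 0.662%, 0.437% and 0.212% at the transitioning, primary and secondary stage, while its 12 somatic cells stay between 2.54% and 4.66%.

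By subunit, the groups overlapped on every plate. Small subunit members had medians of -1.81, -1.21, -0.56, -1.62 and -2.88 on plates 1, 2, 4, 5 and 6 (5 to 11 members), and large subunit members -2.11, -0.86, -0.11, -1.81 and -2.12 (8 to 19 members). The small subunit was nearer to 0 than the large on plates 1 and 5 and farther from it on plates 2, 4 and 6. Paralogs aside, the members had a SD between them of 0.70, 1.21, 0.69, 0.62 and 0.93 on the log2 scale, against 3.03, 3.86, 3.89, 2.47 and 3.02 for all genes, including genes of low count. With the paralogs the SD of the members was 1.73, 3.55, 1.84, 1.07 and 1.51. Among all genes with a mean of at least 50 CPM it was 2.67, 4.54, 4.32, 2.86 and 3.19.

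Among the small subunit, Rps3a1, a protein at the exit of the messenger channel, was lower in oocytes on all 5 plates and below the members' median on each. Its single-cell median on plate 6 was 415 CPM in oocytes (84.9 to 1440), against 6460 CPM in somatic cells (4010 to 10503), without overlap. On plate 2 it was 602 CPM in oocytes (124.7 to 2117), against 6710 CPM in somatic cells (3041 to 27539), again without overlap. On plates 1, 4 and 5 the ranges of the cells overlapped, with medians of 767, 2033 and 131.5 CPM in oocytes, against 2451, 5869 and 2592 CPM in somatic cells. Its log2 ratios were -2.71, -3.52, -1.33, -1.87 and -3.81 on plates 1, 2, 4, 5 and 6. On plate 5, 409.74 of its 491.77 counts in oocytes were in 1 cell, the primordial oocyte (3139 CPM). Rps9, listed on plate 6 only, had the lowest ratio of the members tested there (-3.98, with 196.4 CPM in oocytes and 3101 CPM in somatic cells).

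Other members of the small subunit lay nearer to the members' median or above it. Rps29 had ratios of -0.40, 0.71, -1.75 and -1.15 on plates 2, 4, 5 and 6, higher than the members' median on all but plate 5. Rps15 lay within 1 of that median on each of its plates, with -1.81, -1.21, -1.62 and -2.88 on plates 1, 2, 5 and 6. Rpsa, which also serves as a laminin receptor, was at 1967 CPM in oocytes and 3584 CPM in somatic cells of plate 1, a ratio of -0.87 (95% interval -0.91 to -0.83). Rps13 on plate 4 had -0.68. Rps2 was lower on all 3 plates that listed it (-1.85, -0.45 and -0.56 on plates 1, 2 and 4).

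Of the large subunit, Rpl13, Rpl8, Rpl32, Rpl36 and Rpl17 had values on at least 4 plates. Rpl13 lay below the members' median on all 4 of its plates (-1.88, -0.46, -2.16 and -2.69 on plates 2, 4, 5 and 6). Rpl17, whose protein lies beside the exit tunnel of the growing chain, lay above that median on all 5 (-1.40, -0.28, 0.68, -0.93 and -2.12). Its single-cell median was 93.1 CPM in oocytes (0 to 367), against 559 CPM in somatic cells (192.9 to 1783), on plate 6, and the cells overlapped. Rpl36 moved most from plate to plate, between -2.81 on plate 1 and 0.96 on plate 4. Rpl8 had -1.44, -0.37, -1.81 and -2.75 on plates 1, 4, 5 and 6, and Rpl32 -1.01, 0.33, -1.34 and -2.17 on plates 2, 4, 5 and 6.

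Among the low ratios of the large subunit were those of Rpl12, at the base of the stalk, with -3.25 on plate 1 and -3.96 on plate 2. Rpl38, linked in the mouse to the translation of Hox messengers, had 25.6 CPM in oocytes and 282 CPM in somatic cells of plate 1 (-3.46), and Rpl9 had 178.5 CPM in oocytes and 1783 CPM in somatic cells of plate 5 (-3.32). Of the 121.7 counts of Rpl9 in these oocytes, 104.56 were in 1 cell, and the single-cell median was 25.3 CPM. At the other end, Rpl4 had -0.61 on plate 1, and Rpl35 had -0.28 on plate 6 with an interval that holds 0 (-0.89 to 0.31). Rpl41 (0.19 on plate 2) and Rpl10a (0.15 on plate 4) were above 0 by less than 2-fold. Their single-cell medians were lower in oocytes, at 767 against 850 CPM for Rpl41 and 2978 against 3255 CPM for Rpl10a. Rpl38, Rpl9, Rpl12, Rps9, Rpl4, Rpl35, Rpl41 and Rps2 were chosen after their values were seen.

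The stalk proteins recruit translation factors to the ribosome. Rplp1 was the only one listed on all plates, with ratios of -2.52, -0.79, 0.31, -1.82 and -2.15. Its single-cell median on plate 6 was 167.9 CPM in oocytes (34.6 to 310), against 693 CPM in somatic cells (480 to 918), without overlap, while the cells overlapped on the other 4 plates. Rplp0 had 1521 CPM in oocytes and 6865 CPM in somatic cells of plate 1 (-2.17), and Rplp2 had 101.05 CPM in oocytes and 366 CPM in somatic cells of plate 6 (-1.86).

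**Figure D4:**
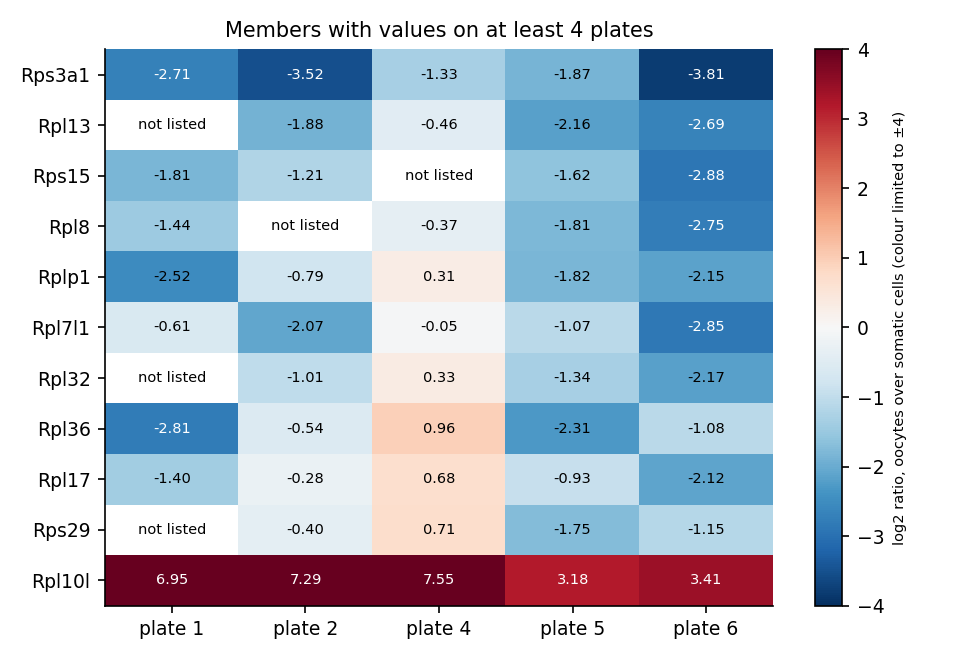
Log2 ratios of oocytes over somatic cells for the 11 members with at least 10 counts on 4 or 5 plates, one row per gene and one column per plate, blue for lower and red for higher in oocytes, ordered by the median distance to the plate's median. Rps3a1 is below 0 on every plate, plate 4 has the palest column, and Rpl10l is above 3 throughout. The values of Rpl10l on plates 1, 2, 4 and 6 rest on a floor of 3 counts in somatic cells.

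Rpl10l was higher in oocytes on every plate, with the highest ratio of the members on all but plate 2, where Rpl39l lay above it. It had 68.8, 134.6, 182.8 and 69.9 CPM in the summed oocytes of plates 1, 2, 4 and 6 and no read in their 37, 32, 16 and 12 somatic cells, where 0 cells allow a share of cells with a read of up to 8.11%, 9.38%, 18.8% and 25% (3 cells of the total). Against a floor of 3 counts over the somatic cells of a plate, it was at least 123.3-fold, 156.7-fold, 187.7-fold and 10.6-fold higher in oocytes. Reads were seen in 11 of 13, 7 of 8, 15 of 15 and 10 of 13 oocytes. Single oocytes had up to 550, 668, 913 and 255 CPM, with medians of 75.8, 112.3, 138.4 and 40.8 CPM, and the lowest were at 0 except on plate 4 (23.8 CPM).

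On plate 5 the difference rested on 1 cell. Rpl10l had 289 CPM in oocytes and 31.9 CPM in somatic cells, a log2 ratio of 3.18 (95% interval 2.83 to 3.53), with reads in 7 of 10 oocytes and 8 of 66 somatic cells. The primordial oocyte held 170 counts (1302 CPM) and the other 9 oocytes 27 counts (49 CPM), and without the primordial one the ratio was 0.62. Of the 8 somatic cells with reads, 5 were primordial and 3 secondary, with 3 to 26 counts each. Oocyte markers took 0% to 0.149% of their counts (median 0.0600%), where all 66 cells ran between 0% and 0.185% (median 0.00251%). The part of oocyte RNA in these reads was not tested.

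Over the 5 plates, 50 of 59 oocytes (84.7%) had a read of Rpl10l, against 8 somatic cells, all on plate 5 (4.91% of the somatic cells). The authors had removed somatic cells scoring high for oocyte markers, and the effect of that on these counts was not tested. With every cell thinned to 5000 counts, 5 of 13, 4 of 8, 7 of 15, 2 of 10 and 5 of 13 oocytes of plates 1, 2, 4, 5 and 6 kept a read, against 0 of 37, 0 of 32, 0 of 16, 6 of 66 and 0 of 12 somatic cells. Thinning equalised the total count per cell, not the number of molecules sampled. Rpl10, its X-linked namesake, whose protein joins the large subunit late in assembly, was listed on plate 5 only, with 861 CPM in oocytes and 1814 CPM in somatic cells (-1.08). Per kilobase of transcript, Rpl10l had 283 CPM in the oocytes of that plate, 28.1% of the 1007 CPM of Rpl10, against 31.1 CPM in somatic cells, 1.47% of the 2122 CPM of Rpl10. In its 9 primary and secondary oocytes alone Rpl10l had 47.9 CPM per kilobase and Rpl10 626.

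**Figure D5:**
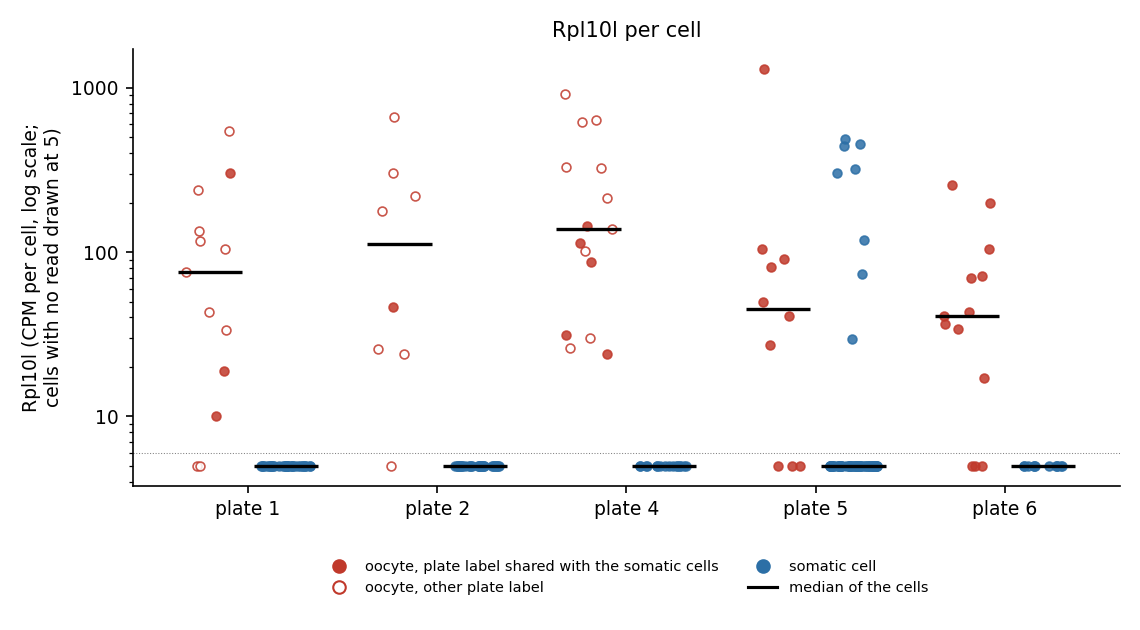
CPM of Rpl10l in each oocyte (red, left) and somatic cell (blue, right) of 5 plates on a log scale, where cells without a read are drawn at 5, open red points are oocytes with another plate label than the somatic cells, and bars are medians. Reads appear in 50 of 59 oocytes, and among somatic cells in 8 of 66 on plate 5 and in none of plates 1, 2, 4 and 6.

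Rpl39l was listed on plate 2 only. All 8 oocytes had reads of it (35.5 to 1175 CPM, median 217.2 CPM), against 1 of 32 somatic cells, with 1 count. Summed, it had 318 CPM in oocytes and 0.286 CPM in somatic cells, a log2 ratio of 10.12 whose 95% interval of 7.63 to 15.42 reflects that single count. Rpl39, which lines the exit tunnel of the large subunit, was listed on plate 1 only and was lower in oocytes there (114.1 CPM, against 741 CPM in somatic cells; -2.70), so the pair has no comparison within a plate.

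In summed counts the other paralogs did not follow Rpl10l and Rpl39l. Rpl7l1 was below 0 on all 5 plates (-0.61, -2.07, -0.05, -1.07 and -2.85), within the range of the other members or, on plate 1, at its upper edge. On plate 5 Rpl7, the namesake of Rpl7l1, had -1.97, with 493.39 of its 605.41 counts in oocytes in 1 cell. Per kilobase, Rpl7l1 there had 36.6 CPM in oocytes and 76.7 CPM in somatic cells, and Rpl7 764 CPM in oocytes and 2992 CPM in somatic cells. Rps27l had 34.7 CPM in oocytes and 65.9 CPM in somatic cells of plate 6 (-0.92, interval -1.70 to -0.15), and its namesake Rps27 had 0.62 on plate 4. Rpl3l had at most 5 counts over the oocytes of a plate and at most 1 over its somatic cells, while its namesake Rpl3 had -2.87 on plate 5. Rpl22, after which Rpl22l1 is named, had -1.05 on plate 4.

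Of the ribosomal proteins that the name rule left out, Gnb2l1, the older symbol of the scaffold Rack1, had a log2 ratio of -2.50 on plate 2, and Rpl36al had -1.61 on plate 5. Rows named as pseudogenes of members reached 10 counts in 3 or 4 of 7 cases a plate and had medians of -2.94, -1.11, -0.28, -1.86 and -2.97. Pseudogene and parent share reads in part. Adding such counts to the parent changed no plate's number of members lower, but it could act only where the plate listed the parent. Of Rpl13a, Rpl9, Rps12 and Rpl27, the parents of the rows with 10 counts, plate 1 listed Rpl13a and plate 4 Rpl27. Plate 5 listed Rpl9 and Rps12, and plates 2 and 6 listed none, so there the outcome was fixed in advance.

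Mitochondrial ribosomal proteins belong to a separate ribosome. Of 29, 26, 19, 28 and 23 of these genes tested, 11, 4, 2, 11 and 15 were lower by at least 2-fold and 2, 6, 3, 2 and 1 higher on plates 1, 2, 4, 5 and 6. Of all genes, 45%, 59.2%, 52.5%, 45.5% and 49.7% were lower there and 26.9%, 24.9%, 29%, 17.9% and 25.7% higher. The medians of the mitochondrial list were -0.80, 0.41, 0.16, -0.74 and -1.26, above the median of all genes on plates 2 and 4 and within 1 of it on plates 1, 5 and 6. Genes of ribosome biogenesis, which process and assemble ribosomal RNA, had medians of -0.80, -0.93, -0.70, 0.42 and -0.59 (21, 7, 7, 9 and 9 of 40 tested), with 6, 2, 3, 3 and 4 lower and 1, 2, 0, 3 and 1 higher, against the same shares of all genes. Among them Nop10, part of the box H/ACA particle, had -3.17, -0.97, -1.85, -2.35 and -2.85. Rrs1, needed for the large subunit, had -1.38, -3.71, -1.80, -1.24 and -1.60. Both were chosen after their values were seen. Wdr43, Rrp12 and Rrn3, the other genes of this list with values on all 5 plates, mostly went the other way. Wdr43 and Rrn3 were below 0 on plate 2 alone (-0.464 and -0.931) and Rrp12 on plate 6 alone (-0.204). Regulators of oligopyrimidine-tract messengers gave 7 values. The binding protein Larp1 had -1.34 on plate 5, and its relative Larp1b 1.38 on plate 1 and -0.16 on plate 6. Eif4ebp1 and Eif4ebp2 had -0.52 on plate 2 and -1.27 on plate 6, and the kinases Rps6kb2 and Rps6kb1 -1.40 on plate 2 and -1.10 on plate 6.

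The cell table's ribosomal fraction, which it does not define further, moved with the type of cell as well. Its median was 15.7%, 4.46%, 11.2%, 7.38% and 11% in the oocytes of plates 1, 2, 4, 5 and 6, against 22.7%, 12.2%, 31.3%, 27.1% and 39.5% in the somatic cells. The intronic fraction was also lower in oocytes on every plate (medians 3.60% to 10.1%, against 12.2% to 20.4% in somatic cells). Their part in the results was not tested.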

How the data were processed

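Estimated counts per gene and cell, as deposited by the authors, were used for 244 single cells. The authors aligned Smart-seq2 reads to GRCm38 with scripts on Terra, kept protein-coding genes and cells with enough genes, and worked in Seurat v4. They also removed oocytes scoring high for somatic markers and somatic cells scoring high for oocyte markers. The read counter is not given in the sources used here, and 17.2% of non-zero values have a fractional part. The deposited cell table gave the plate number, the plate label, total reads (a count), fractions of reads (such as the ribosomal fraction) and ratios of 5′ and 3′ bias. Of 25149 rows, 27 had dates as names (0.0743% of counts) and were left out. Each plate lists its own genes, and 32.9% of the table is empty.

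Counts were summed per plate and cell type and divided by the total over the plate's genes (CPM). A sum of 0 was set to a floor of 3 counts over the group, and genes with under 10 counts over both types were left out. A log2 ratio of at least 1 in size was called. Exact Poisson and binomial intervals at 95% cover counting error only, since PCR reads without molecular identifiers are not independent molecules. Members and lists were chosen with earlier results of these data known. Named with values are, by rule, members with at least 10 counts on at least 4 plates (the 6 highest and 6 lowest by distance to the plate's median), paralogs with their namesakes, the stalk proteins, Rpsa, Rps27a, Rps16, Rps24, Rps13 and Rpl10a. Alternatives used TMM (edgeR 4.0.16) and DESeq2 1.42.0 factors for scaling only. Calculations ran in Python 3.11.15 and R 4.3.3, with log2 ratios tested on simulated data.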

Additional observations from a re-analysis of the deposited data

Results flagged for a closer look

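In sets of 4 to 10 cells of 1 plate, type and stage, a cell far from the others was looked for in the share of members and in Rpl10l, 15 searches in all, and 4 were found. The rule's chance rate of about 1 in 20 assumes normally distributed values. Skewed shares and CPM with zeros need not follow that, so the rate is no measure of an excess here. Among the 7 primary oocytes of plate 1, 1 had 0.575% of its counts on the members, far under the nearest (2.65%), and it was the deepest oocyte of that plate. In the same 7 oocytes, 1 had 550 CPM of Rpl10l, from 3 counts in a cell of 5453 counts, where the next had 104.1 CPM. Among the 8 transitioning somatic cells of plate 1, 1 had 20.2% of its counts on the members, and the next 10.1%. Among the 8 primary oocytes of plate 6, 1 had 255 CPM of Rpl10l, and the next 104.5 CPM.

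On plate 3, which has no oocyte, 1 of 22 somatic cells had 74 counts of Rpl10l (524 CPM) and the others had none, a signal in data outside the comparison. Oocyte markers took 0.0886% of the counts of that cell, with reads of 3 of 8 listed markers, and granulosa markers 0.552%.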

How the results depend on the processing

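Each plate's median, number of members lower by at least 2-fold and ratio of summed shares were recomputed under other scalings, filters and sets of cells, 50 of these values added after seeing the data (stages and labels matched, the deepest cell left out). None of them turned round a value that was at least 1 in size as reported. Counts, and values nearer 0 such as the medians of plates 2 and 4, could not be labelled as turned. Of all the recomputed values, 23 moved by more than the spread of the oocytes (or by over 1.5 times, for counts), and the others stayed within it. On plates 1, 5 and 6 every median stayed below 0, between -2.99 and -1.15, between -3.18 and -1.29 and between -3.42 and -1.34. On plates 2 and 4 it ran between -2.54 and 0.58 and between -1.20 and 0.78, above 0 in 2 of 14 and 4 of 14 settings, where the cause was not tested. The log2 ratio of summed shares stayed below 0 on plates 1, 2, 5 and 6, and on plate 4, -0.36 as reported, it was 0.015 with the mean CPM of single cells and -0.0019 with cells thinned to 5000 counts.

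The number of members lower on plate 2, 8 as reported, was 2 with TMM and 2 with DESeq2 factors, 5 with the mean CPM of single cells, 5 without the deepest somatic cell and 15 with the somatic plate label. On plate 4, 2 as reported, it was 0 with TMM and 0 with DESeq2 factors, 5 with totals over genes listed on every plate, 1 with the mean CPM of single cells, 1 without the deepest oocyte and 15 with the somatic plate label. With that label the median was -2.99 on plate 1 and -2.54 on plate 2, and the log2 ratio of summed shares on plate 1 was -2.89. On plate 5 the median and the ratio of shares were -2.82 and -3.04 for primary cells and -3.18 and -3.55 for secondary cells, and the ratio of shares was -2.91 without the deepest oocyte, the primordial one. On plate 6 the median was -1.56 with TMM, -1.34 with DESeq2 factors and -3.42 for secondary cells, whose ratio of shares was -4.07. The median over plates, -1.62, ran between -1.74 and -1.20 without each plate in turn, and members of 1 sign on all their plates, 70 of 76, were 50 of 56, 66 of 72, 68 of 68, 52 of 58 and 60 of 66 without plates 1, 2, 4, 5 and 6. For the 60 members with values on 1 plate, that sign is fixed in advance.

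No paired analysis was possible because the replicate numbers of the labels only number the cells of a group and the results come from no test. The listed members limit every plate: most of the 83 are absent from any 1 of them, and low members such as Rpl37 on plate 5 had reads in 2 of 10 oocytes.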

Other observations

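The 22 transitioning somatic cells of plate 3 listed 19 members, which took between 1.59% and 13.3% of the counts of a cell (median 2.92%). Over members listed on several plates, other than paralogs, the distances to the plate's median went together on some pairs of plates and not on others. Pearson's r was 0.90 over 9 members between plates 4 and 6 and 0.86 over 9 members between plates 2 and 6, but -0.06 over 10 members between plates 5 and 6 and 0.03 over 6 members between plates 1 and 4. These are descriptions across genes, which are not independent replicates.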
